A study of Mus musculus with 6 samples.

Results

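The Abl kinases, the STAT5 transcription factors and the immediate outputs of STAT5 were followed in Abelson-transformed mouse pro-B cells after tamoxifen treatment meant to delete Foxo1. The set holds 10 genes, chosen by name: the kinases Abl1 and Abl2, the transcription factors Stat5a and Stat5b, the feedback inhibitors Cish, Socs1, Socs2 and Socs3, and the survival kinases Pim1 and Pim2. All 10 were found among the 19937 genes that carry a single symbol in the annotation of the array, and each is represented by its brightest probe set, the group of probes summarised to 1 intensity. Socs2 and Socs3 each had 1 further probe set, described beside them.

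The study hybridised total RNA of 6 samples to microarrays, 3 from cells given 1 µM tamoxifen for 2 days and 3 from untreated cells. All samples had the genotype Foxo1f/f; ERCre on strain C57/BL6. Treated and untreated cells thus had in common the v-Abl oncogene, Foxo1 alleles flanked by loxP sites and the ERCre recombinase, whose oestrogen receptor part makes it depend on tamoxifen. The untreated samples are also described as WT by the labels, although they carry the floxed alleles. Tamoxifen-treated cells without these alleles were not analysed here, so deletion of Foxo1 and exposure to tamoxifen cannot be told apart. The labels do not say whether the line is 1 clone or whether the samples of a group were grown separately, so the spread behind the p-values may be technical.

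Abl1 encodes a tyrosine kinase that is normally held inactive by its own regulatory domains. The Abelson virus carries a version of it, v-Abl, that has lost this restraint and drives growth of pro-B cells without their usual cytokine, interleukin-7. STAT5, which interleukin-7 activates through Janus kinases in normal pro-B cells, is phosphorylated constitutively in such transformed cells, enters the nucleus and switches on Cish, Socs genes and Pim genes. The Cish and Socs proteins bind cytokine receptors or Janus kinases and damp the pathway, whereas the Pim kinases promote survival and growth. The mRNAs of these outputs are therefore commonly read as a measure of STAT5 activity, but protein and phosphorylation were not measured here.

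The STAT motif is shown first because STAT5 is known to act on Cish through DNA elements of this kind. Binding of STAT5 to the copies given here was not tested. RefSeq windows of assembly GRCm38.p6, each 250 bases before to 50 bases after an annotated start, were used for 9 of the 10 genes, all but Socs2, in 13 windows because some genes have more than 1 start. The letters TTCNNNGAA, which read the same on both strands, were present in 8.3% of 32851 windows of this length, and 0.457% held them at least 2 times. Among the 10 genes, Cish held 2 copies and Socs3 held 1. The Cish copies began at base 251 and base 262 of the window, and the first of these is the first base of the annotated gene. A FOXO motif, TGTTTAC or its reverse complement GTAAACA, was present in 3.65% of windows and, among these genes, in 1 of the windows of Pim1. It did not overlap a STAT motif. No window of the other members held either motif, which says only that these letters are not in these windows.

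The windows of Cish, Socs3 and Pim1 are printed because they hold the motifs, and that of Pim2 because it is the gene with the lowest p of the 10. Capitals mark the motif matches, STAT in Cish and Socs3 and FOXO in Pim1. Each is written 5′ to 3′ on the strand of its gene. They lie at chr9:107296409-107296708 (+ strand), chr11:117969317-117969616 (- strand), chr17:29492835-29493134 (+ strand) and chrX:7878056-7878355 (+ strand), in the order given.
Cish: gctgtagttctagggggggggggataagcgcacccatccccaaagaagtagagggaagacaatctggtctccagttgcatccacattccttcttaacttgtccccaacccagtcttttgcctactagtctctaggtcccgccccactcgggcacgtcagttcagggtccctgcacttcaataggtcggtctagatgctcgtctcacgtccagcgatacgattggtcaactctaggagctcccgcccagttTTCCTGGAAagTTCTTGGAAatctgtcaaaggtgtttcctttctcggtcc
Socs3: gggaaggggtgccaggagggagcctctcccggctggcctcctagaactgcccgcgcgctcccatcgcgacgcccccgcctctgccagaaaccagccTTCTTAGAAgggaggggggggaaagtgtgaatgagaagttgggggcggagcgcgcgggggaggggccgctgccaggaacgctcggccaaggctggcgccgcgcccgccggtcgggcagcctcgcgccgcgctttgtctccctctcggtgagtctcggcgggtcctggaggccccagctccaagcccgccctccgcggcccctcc
Pim1: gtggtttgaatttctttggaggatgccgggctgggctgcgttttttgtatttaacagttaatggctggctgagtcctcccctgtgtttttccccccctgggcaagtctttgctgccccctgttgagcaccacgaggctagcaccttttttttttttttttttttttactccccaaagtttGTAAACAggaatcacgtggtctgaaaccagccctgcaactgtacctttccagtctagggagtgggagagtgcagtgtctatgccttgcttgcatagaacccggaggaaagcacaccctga
Pim2: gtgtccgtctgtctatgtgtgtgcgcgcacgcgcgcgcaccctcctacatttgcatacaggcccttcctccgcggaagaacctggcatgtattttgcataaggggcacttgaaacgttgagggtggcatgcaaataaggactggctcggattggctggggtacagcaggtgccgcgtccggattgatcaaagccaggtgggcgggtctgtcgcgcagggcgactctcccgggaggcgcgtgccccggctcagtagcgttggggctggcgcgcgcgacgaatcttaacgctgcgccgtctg

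Between tamoxifen and untreated cells 0 of the 10 genes were called over all probe sets. When genes were tested as the average of their probe sets 1 was called, Pim2 (limma adjusted p = 0.0383), beside 73 of all 19937 genes. Cish was 1.64-fold higher and Pim2 was 0.687-fold the untreated level, and both had groups that did not overlap. All fold changes were computed from log2(value + 16), so those of dim genes come out too small. With limma and Benjamini-Hochberg adjustment over all 34760 probe sets, 0 of 10 had an adjusted p under 0.05, where 0.0575% of all probe sets did (20 probe sets, 13 higher and 7 lower). Adjusted p ran from 0.185 for Pim2 to 0.9995. In bulk RNA, fewer cells that express a gene and less of its RNA per cell cannot be told apart. At an unadjusted p under 0.05 there were 5 of the 10, 3 higher (Cish, Socs2 and Stat5b) and 2 lower (Pim2 and Abl1), beside 5.11% of all probe sets. That count was 3 without tamoxifen sample 1, with median scaling and with no further normalisation, and over 13 alternatives Abl1 stayed under 0.05 in 7 and Stat5b in 6. Groups lay apart on the normalised scale for 4 of the 10, Cish, Socs2, Pim2 and Abl1, beside 9.89% of all probe sets. The genes were picked with such values known, so these counts describe the set and do not support it. Of the 10 log2 fold changes, 5 were positive and 5 negative, with a median of 0.01, where the median over all probe sets was -0.01.

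**Figure D1:**
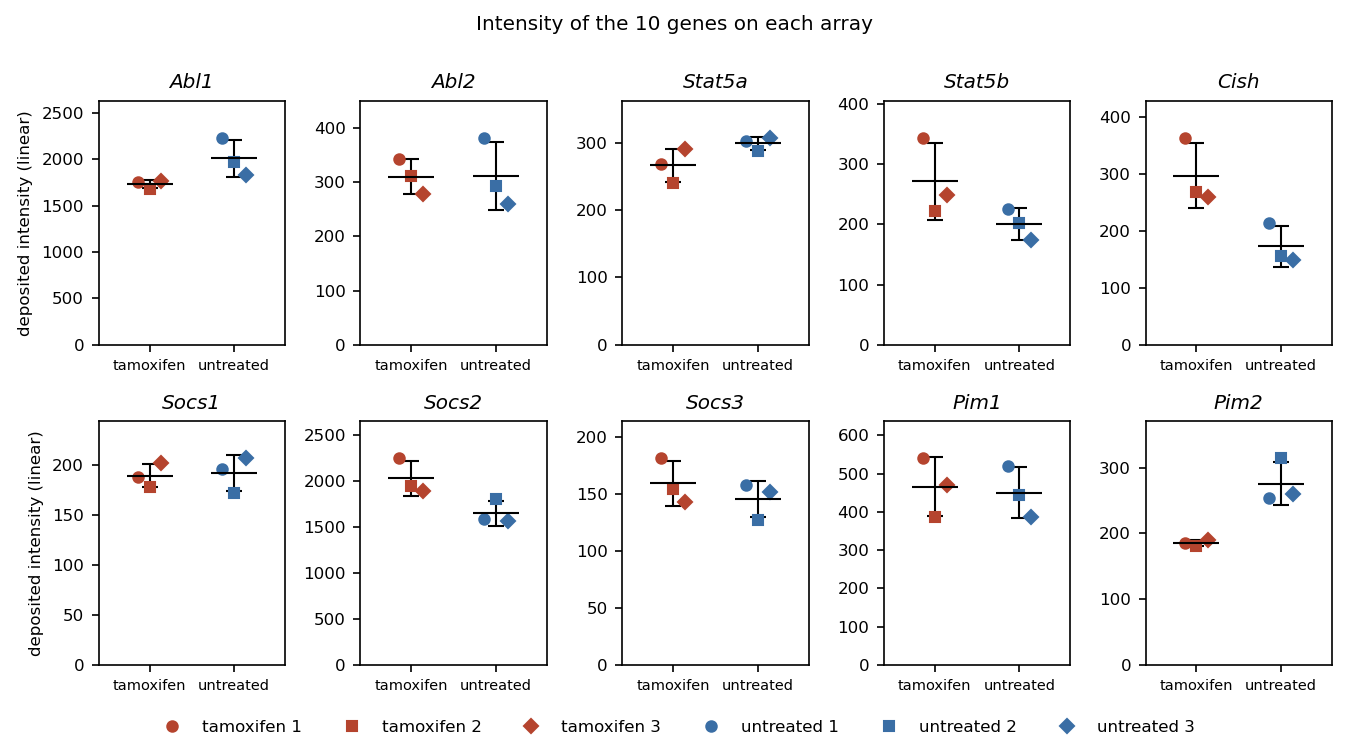
Deposited linear intensity (vertical axis, from 0) of each gene on the 3 tamoxifen arrays and the 3 untreated arrays. Symbols mark the replicate number, horizontal bars the mean and vertical bars the SD (n = 3). Cish and Socs2 lie higher and Pim2 and Abl1 lower on every tamoxifen array, and the other 6 genes overlap between groups.

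Foxo1 itself, the gene that was to be deleted, had intensities of 116, 151 and 134 in tamoxifen samples 1, 2 and 3, against 806, 624 and 512 in untreated samples 1, 2 and 3. It fell by 2.13 on the log2 scale (SE 0.15, limma adjusted p = 0.0178). That call was kept in 6 of 13 alternatives. It was lost, among others, with median scaling (limma adjusted p = 0.05003) and with any array other than untreated sample 1 left out (0.0843 to 0.156), while over the 13 alternatives the log2 fold change lay between -2.26 and -1.83. Whether its probes lie in the deleted part was not tested. The array medians lay between 100.9 and 109.1 and all 10 genes were above the median of every array. Of 11 measured pro-B markers, 11 were above the upper quartile of every array, among them Cd79a, Vpreb1, Igll1 and Pax5, with a summed intensity of 26827 to 27244 in tamoxifen samples and 23356 to 26113 in untreated samples. Within that list Ebf1 (-0.51), Vpreb3 (-0.12) and Il7r (-0.09) had negative log2 fold changes and the other markers positive ones, up to 0.52 for Cd79b, and 0 of the 11 were called. The part of these markers in the results was not tested. All 5 T cell, all 6 myeloid, both erythroid and all 4 NK and plasma cell markers measured were at or below the median on at least 1 array. The collagen genes Col1a1, Col1a2 and Col3a1 of the stromal list lay above the median but below the upper quartile on every array. The summed intensity of the 4 stromal markers was 532 to 605 in tamoxifen samples and 519 to 659 in untreated samples.

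Abl1 was bright on all arrays. Its intensity was 1752, 1683 and 1763 in tamoxifen samples 1, 2 and 3, against 2227, 1970 and 1829 in untreated samples 1, 2 and 3. The 3 tamoxifen samples were close together and all lay below the untreated samples, of which the lowest was near the highest tamoxifen value. The mean was 1732 ± 43.2 in tamoxifen cells and 2009 ± 202 in untreated cells (SD, n = 3 each), and the log2 fold change was -0.22 ± 0.08 (SE), with limma adjusted p = 0.862. The 95% interval of the fold ran from 0.759 to 0.976. Because v-Abl is derived from Abl1, this probe set may read the viral transcript together with the cellular one, and the values used here do not separate them.

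Abl2 encodes the second kinase of the family, which shares its kinase domain with Abl1 and binds actin through its C-terminal part. It measured 342, 312 and 278 in tamoxifen samples 1, 2 and 3, against 382, 293 and 259 in untreated samples 1, 2 and 3. The groups overlapped over nearly their whole range, and the sample numbered 1 was the highest in both. The log2 fold change was -0.01 ± 0.13 (SE), with a 95% interval of the fold from 0.797 to 1.24, and its sign turned to 0.03 with arrays scaled to a common median.

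Stat5a and Stat5b encode near-identical transcription factors and lie next to each other in the genome, with 0 genes between them, and Stat3 follows next to Stat5a in the RefSeq table. Probes of such similar genes may hybridise to both transcripts, which makes the values of either uncertain. Stat5a measured 268, 241 and 290 in tamoxifen samples 1, 2 and 3, against 302, 288 and 307 in untreated samples 1, 2 and 3. The tamoxifen samples lay lower except that sample 3 just exceeded the lowest untreated sample. The log2 fold change was -0.18 ± 0.09 (SE), the 95% interval of the fold 0.758 to 1.02 and the limma adjusted p = 0.9995.

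Stat5b measured 344, 222 and 249 in tamoxifen samples 1, 2 and 3, against 226, 203 and 174 in untreated samples 1, 2 and 3. Tamoxifen sample 1 stood well above the rest, and tamoxifen sample 2 lay just below the highest untreated sample. The log2 fold change was 0.37 ± 0.15 (SE), 1.30-fold, with limma adjusted p = 0.958. Without tamoxifen sample 1 it was 0.22, the lowest value with 1 array left out. The estimates of the pair therefore had opposite signs. On each array the log2 ratio of Stat5b to Stat5a was 0.31, -0.12 and -0.22 in tamoxifen samples 1, 2 and 3, against -0.39, -0.46 and -0.84 in untreated samples 1, 2 and 3. The ratio differed by 0.56 ± 0.21 (SE) and the groups did not overlap, with an exact permutation p = 0.1, which is the smallest a two-sided test of 3 against 3 allows.

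Cish encodes the cytokine-inducible SH2 protein, the archetypal STAT5 target, and its window holds 2 of the STAT motifs printed above. Its intensity was 363, 269 and 259 in tamoxifen samples 1, 2 and 3, against 215, 156 and 148 in untreated samples 1, 2 and 3. Every tamoxifen sample lay above every untreated sample, and in both groups sample 1 stood above the other two. The mean was 297 ± 57.5 in tamoxifen cells and 173 ± 36.2 in untreated cells (SD, n = 3 each). The log2 fold change of 0.71 ± 0.17 (SE) was the largest in size of the 10, with a 95% interval of the fold from 1.25 to 2.16 and limma adjusted p = 0.482. Leaving out tamoxifen sample 1 gave 0.58 and leaving out untreated sample 1 gave 0.87, the ends of the range with 1 array left out.

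Socs2 encodes an inhibitor best known for limiting growth hormone signalling. Its brightest probe set measured 2248, 1949 and 1894 in tamoxifen samples 1, 2 and 3, against 1583, 1802 and 1564 in untreated samples 1, 2 and 3. The groups did not overlap, although the highest untreated sample came near the lowest tamoxifen sample. The mean was 2031 ± 190 in tamoxifen cells and 1650 ± 132 in untreated cells (SD, n = 3 each), and the log2 fold change was 0.29 ± 0.07 (SE, limma adjusted p = 0.572). The second probe set of Socs2 did not show the same separation. It measured 348, 394 and 416 in tamoxifen samples 1, 2 and 3, against 321, 383 and 379 in untreated samples 1, 2 and 3, a log2 fold change of 0.07 ± 0.12 (SE). With both averaged the value was 0.18.

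Socs1 and Socs3 encode the inhibitors that block Janus kinase activity directly. Socs1 measured 188, 178 and 202 in tamoxifen samples 1, 2 and 3, against 197, 172 and 207 in untreated samples 1, 2 and 3. The groups lay on top of each other, with a log2 fold change of -0.03 ± 0.09 (SE) and a 95% interval of the fold from 0.842 to 1.14. Socs3, whose window holds 1 STAT motif, measured 181, 155 and 143 in tamoxifen samples 1, 2 and 3, against 158, 128 and 151 in untreated samples 1, 2 and 3. Its groups overlapped as well, with a log2 fold change of 0.11 ± 0.11 (SE) and a 95% interval of the fold from 0.895 to 1.30. This estimate was 0.02 without tamoxifen sample 1 and 0.03 without untreated sample 2. The dimmer second probe set of Socs3, with means of 68.4 ± 1.74 in tamoxifen cells and 64.9 ± 10.9 in untreated cells (SD, n = 3 each), gave 0.09 ± 0.11 (SE).

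Pim1 and Pim2 encode serine/threonine kinases that do not need activation by another kinase, so their activity depends largely on how much of them is made. Pim1 measured 540, 386 and 471 in tamoxifen samples 1, 2 and 3, against 519, 444 and 386 in untreated samples 1, 2 and 3. The groups overlapped fully. The log2 fold change was 0.03 ± 0.12 (SE), with a 95% interval of the fold from 0.834 to 1.25.

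Pim2 measured 186, 181 and 190 in tamoxifen samples 1, 2 and 3, against 253, 314 and 260 in untreated samples 1, 2 and 3. The tamoxifen samples were nearly equal, and all lay well below the lowest untreated sample. The mean was 186 ± 4.30 in tamoxifen cells and 276 ± 33.2 in untreated cells (SD, n = 3 each), 0.687-fold with a 95% interval from 0.600 to 0.787. The log2 fold change was -0.54 ± 0.08 (SE) with limma adjusted p = 0.185. When 19937 genes were tested in place of all probe sets, each as the average of its probe sets, 73 were called. Pim2 was among them with a limma adjusted p = 0.0383, at the same log2 fold change because it has a single probe set. Over all alternatives the adjusted p ran from 0.0383 to 0.660.

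The log2 ratio of Pim2 to Pim1 on each array was -1.38, -1.06 and -1.28 in tamoxifen samples 1, 2 and 3, against -0.96, -0.48 and -0.57 in untreated samples 1, 2 and 3. The ratio differed by -0.57 ± 0.18 (SE), and the highest tamoxifen value lay just below the lowest untreated value. The exact permutation p was 0.1. A total of 5 such pairs were compared, chosen with the values of the genes known, and adjusted over these pairs the p of Pim2 to Pim1 and of Stat5b to Stat5a was 0.25. The other pairs overlapped between groups: Abl2 to Abl1 differed by 0.21 ± 0.14 (SE, exact permutation p = 0.2), Cish to Socs2 by 0.42 ± 0.22 (SE, exact permutation p = 0.3) and Socs3 to Socs1 by 0.14 ± 0.13 (SE, exact permutation p = 0.4). The ratios of different probe sets have no absolute meaning, and only their differences between groups are read here.

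**Figure D2:**
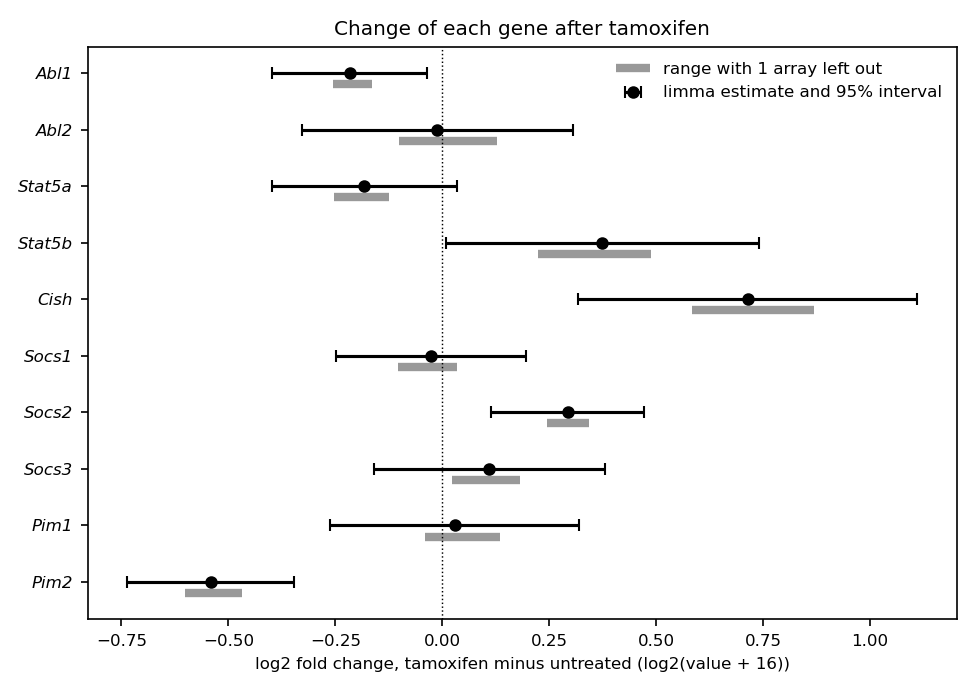
Log2 fold change of each gene, tamoxifen minus untreated, on the log2(value + 16) scale (horizontal axis), with points for the limma estimate, black bars for its 95% interval and grey bars for the range with 1 array left out. The intervals of Abl2, Stat5a, Socs1, Socs3 and Pim1 include 0, those of Cish, Socs2, Stat5b, Pim2 and Abl1 do not before adjustment, and the grey bars cross 0 for Abl2, Socs1 and Pim1.

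The intervals give the precision of each estimate. For 7 of the 10 genes the 95% interval lay within a factor of 1.5 in either direction, and for 9 of the 10 within a factor of 2. Cish was the exception, with an upper end of 2.16-fold. A p that misses the threshold does not show that a gene was unaffected.

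On the deposited values, single arrays were often the highest or the lowest of their group. All 10 genes were above the median of every array, whereas the shares below cover dim probe sets too. The array upper quartile was highest on tamoxifen sample 1 (298.8) and lowest on untreated sample 3 (273.1). Its part in these counts was not tested. Tamoxifen sample 1 gave the highest tamoxifen value for 6 of the 10 genes, beside 34.6% of all probe sets, and tamoxifen sample 2 the lowest for 6, beside 26.5%. Untreated sample 1 gave the highest untreated value for 6 of the 10, beside 32.8% of all probe sets, and untreated sample 3 the lowest for 6, beside 33%. In 7 of the 10 genes the same number was highest in both groups, number 1 for Abl2, Stat5b, Cish, Socs3 and Pim1 and number 3 for Stat5a and Socs1. The share of all probe sets for which this held was not computed, so the count only describes these genes. The spread between replicates was widest for Stat5b in tamoxifen cells, where the highest sample was 1.54 times the lowest, and for Abl2 in untreated cells, where it was 1.47 times. It was narrowest in tamoxifen cells for Abl1 and Pim2, at 1.05 times each.

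The genes around the pathway were read from 6 lists covering 79 genes, of which 73 were measured by a probe set with a single symbol. None passed limma over all probe sets (0 higher and 0 lower), where 0.0575% of all probe sets did. At an unadjusted p under 0.05 there were 6 higher and 4 lower, together 10 of 73, beside 5.11% of all probe sets, and without untreated sample 1 there were 11 higher and 4 lower. The lists were chosen with earlier results known, so the counts of each list below describe it only. Of the 73, 42 had a positive and 31 a negative log2 fold change, where 46.1% of all probe sets were positive. With dim probe sets left out 58 of the 73 remained, and the list medians below include the dim genes.

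Among cytokine receptors and Janus kinases 2 of 11 had an unadjusted p under 0.05, both higher, with a list median of 0.04. Il2ra, the alpha chain of the interleukin-2 receptor and itself a known STAT5 target, measured 1096, 1251 and 1159 in tamoxifen samples 1, 2 and 3, against 851, 917 and 756 in untreated samples 1, 2 and 3, a log2 fold change of 0.46 ± 0.10 (SE, limma adjusted p = 0.385). Its groups were clearly apart. Csf2rb, the shared beta chain of the interleukin-3, interleukin-5 and GM-CSF receptors, measured 764, 534 and 613 in tamoxifen samples 1, 2 and 3, against 555, 405 and 362 in untreated samples 1, 2 and 3. Its log2 fold change was 0.51 ± 0.16 (SE, limma adjusted p = 0.744), and sample 1 was the highest of both groups, as for Cish. The groups lay apart on the normalised scale, but the deposited values overlapped, with 534 in tamoxifen sample 2 against 555 in untreated sample 1. Jak1 and Jak2 gave 0.03 ± 0.06 and 0.20 ± 0.11 (SE), and Il7r, the interleukin-7 receptor chain, -0.09 ± 0.18 (SE).

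Of the 4 other STATs measured, Stat4 had an unadjusted p under 0.05. It measured 257, 306 and 289 in tamoxifen samples 1, 2 and 3, against 301, 424 and 350 in untreated samples 1, 2 and 3, a log2 fold change of -0.33 ± 0.13 (SE, limma adjusted p = 0.954). Its groups overlapped by a narrow margin. Stat3, which acts beside STAT5 downstream of many cytokines, gave 0.07 ± 0.06 (SE).

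Among the other inhibitors of the pathway 3 of 15 had an unadjusted p under 0.05, all higher, with a list median of 0.07. Ptpn6, the phosphatase SHP-1 that removes phosphate from Janus kinases and receptors, measured 1907, 1556 and 1700 in tamoxifen samples 1, 2 and 3, against 1267, 1156 and 1095 in untreated samples 1, 2 and 3. Every tamoxifen sample was above every untreated one, and the log2 fold change was 0.53 ± 0.07 (SE, limma adjusted p = 0.132). Tested as the average of its probe sets it was called (limma adjusted p = 0.0256). It was the 1 of the 73 list genes called under that setting, where 73 of all 19937 genes were. Cblb and Cbl, ubiquitin ligases that mark activated tyrosine kinases for destruction, gave 0.34 ± 0.10 and 0.21 ± 0.06 (SE), with limma adjusted p of 0.688 and 0.745. The remaining family members Socs4, Socs5, Socs6 and Socs7 lay between -0.03 and 0.11.

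Of 15 other STAT5 targets, 1 was higher and 2 lower at an unadjusted p under 0.05, and the list median was 0.03. Mcl1, an anti-apoptotic protein, gave 0.24 ± 0.07 (SE), Myc, a growth-promoting transcription factor, -0.22 ± 0.07 (SE) and Ccnd3, cyclin D3, -0.21 ± 0.07 (SE), with limma adjusted p of 0.745, 0.721 and 0.825. In each the groups lay apart on the normalised scale, though the deposited values of Ccnd3 overlapped, with 424 in tamoxifen sample 1 against 414 in untreated sample 3. Bcl2l1, which encodes the survival protein BCL-XL, gave 0.35 ± 0.21 (SE). Bcl6, a repressor that STAT5 holds down in B cell precursors, gave -0.01 ± 0.08 (SE). It was dim, with 48.3, 49.1 and 51.7 in tamoxifen samples 1, 2 and 3, against 48.8, 57.4 and 46.4 in untreated samples 1, 2 and 3. Bcl6 was above the array median on 0 arrays, so its value says little about a change.

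Of 19 measured adaptors and substrates of Abl kinases, Abi2 alone had an unadjusted p under 0.05, and the list median was 0.01. Abi2, an Abl interactor that links the kinases to actin assembly, measured 193, 166 and 169 in tamoxifen samples 1, 2 and 3, against 225, 253 and 251 in untreated samples 1, 2 and 3. The groups were well apart, with a log2 fold change of -0.45 ± 0.08 (SE, limma adjusted p = 0.308). Its relatives Abi1 and Abi3 gave 0.18 ± 0.11 and 0.25 ± 0.13 (SE), and Crkl, a prominent substrate of BCR-ABL, 0.14 ± 0.08 (SE). Of the 9 Pim relatives and substrates none had an unadjusted p under 0.05. Pim3, the third kinase of the family, gave -0.01 ± 0.09 (SE), and Bad, a death-promoting protein that Pim kinases inactivate, 0.01 ± 0.06 (SE).

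**Figure D3:**
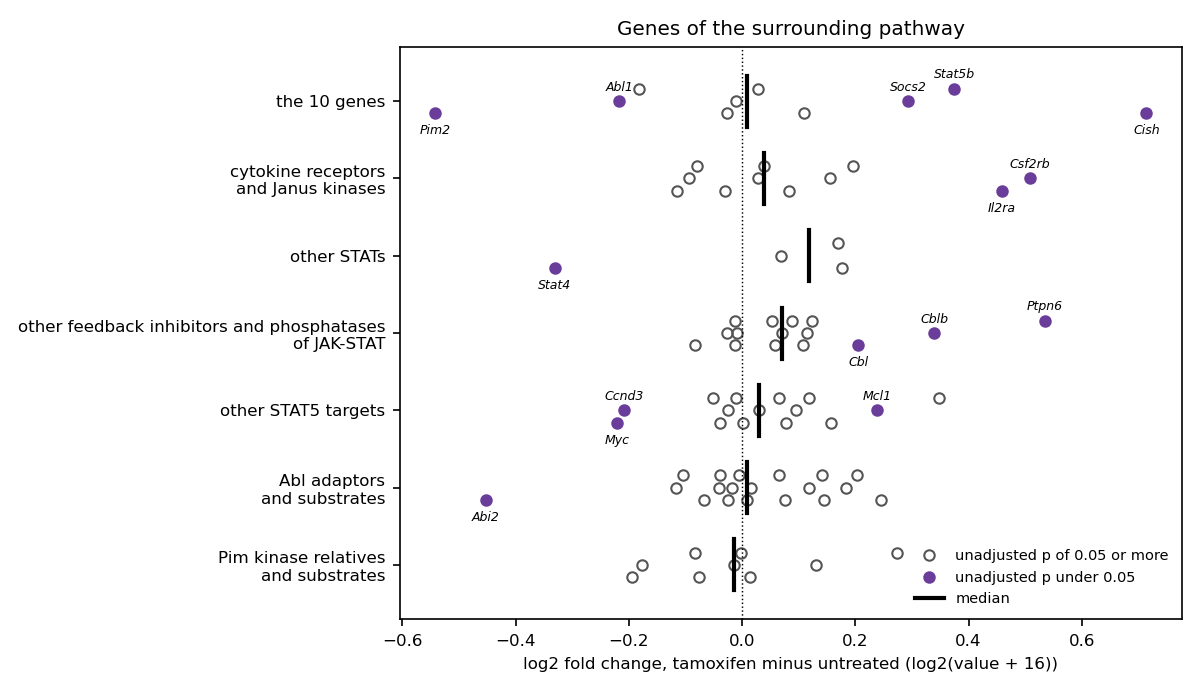
Log2 fold change, tamoxifen minus untreated, on the log2(value + 16) scale (horizontal axis) of the 10 genes and of the measured genes of 6 surrounding lists, 1 point per gene, with black bars for list medians. Named filled points had an unadjusted p under 0.05, and none passed after adjustment over all probe sets. Cish and Pim2 lie farthest from 0.

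The genes whose array pattern was most like that of Cish, Pim2 and Abl1 were sought among 10117 genes by the Pearson correlation of normalised log2 values over the 6 arrays. These correlations describe points that share the group difference and the arrays. Rassf4 (r = 0.999), Sec11c (r = 0.994) and Usp54 (r = 0.993) came nearest to Cish, with log2 fold changes of 0.61, 0.15 and 0.27. Rassf4 measured 402, 306 and 298 in tamoxifen samples 1, 2 and 3, against 261, 193 and 181 in untreated samples 1, 2 and 3, so sample 1 was the highest of each group as for Cish. Nlrp3 (r = 0.998), Ift43 (r = 0.991) and Cep97 (r = 0.991) came nearest to Pim2, with log2 fold changes of -0.82, -0.79 and -0.16. Ift43, a gene of intraflagellar transport, was the one of these 3 that passed over all probe sets (limma adjusted p = 0.0424), a call kept in 3 of 13 alternatives and in 0 of the 6 with an array left out. Nlrp3, the inflammasome sensor, measured 85.9, 87.1 and 93.9 in tamoxifen samples 1, 2 and 3, against 150, 206 and 160 in untreated samples 1, 2 and 3, with untreated sample 2 the highest as for Pim2. Dnttip1 (r = 0.991), Pck2 (r = 0.988) and Ctu1 (r = 0.984) came nearest to Abl1, with log2 fold changes of -0.12, -0.18 and -0.12.

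**Figure D4:**
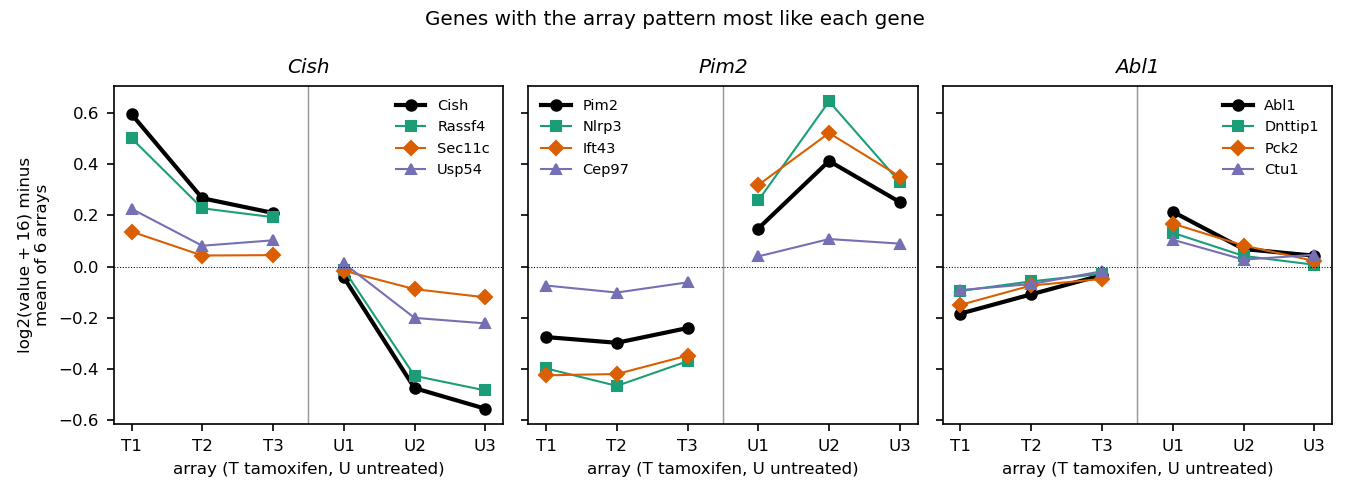
Normalised log2(value + 16) minus its mean over the 6 arrays (vertical axis) for Cish, Pim2 and Abl1 in black and the 3 genes most like each in colour, by array (T tamoxifen, U untreated, with the replicate number). Lines only join the values of a gene within a group. Cish and Rassf4 have sample 1 highest in both groups, and Pim2 and Nlrp3 have untreated sample 2 highest.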

How the data were processed

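The deposited table gives a linear intensity per probe set and array, already summarised by the authors, and no source used here states their background correction or normalisation. Per the labels' protocols, biotinylated cRNA was made from 200 ng of total RNA. Groups and replicate numbers come from the sample titles. Intensities printed are the deposited values. For testing, log2(value + 16) was quantile normalised over the 6 arrays and compared two-sided with limma 3.58.1 (lmFit, eBayes) under R 4.3.3. P-values were adjusted by Benjamini-Hochberg over 34760 probe sets, with a threshold of 0.05. This scale understates changes of dim genes. A platform table named 21640 probe sets with 1 symbol, 1321 with several and did not list 11799. The limma steps were tested on simulated arrays with known changes in probe sets above the median and less noise than the real arrays. That test does not show how stable the calls on the real arrays are. Alternatives were the scaling, the pseudocount, a filter on dim probe sets, the average of a gene's probe sets, a replicate block and each array left out. No 2 arrays held identical values, and correlations within groups were 0.986 to 0.994.

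The genes, the lists and the naming rule were chosen with earlier results of these data known. All 10 genes and Foxo1 were named whatever their result, and from each list up to 3 genes with the lowest unadjusted p under 0.05. Other list genes, given for their roles, were added after their values were seen. For likeness, genes with a dim mean or a RIKEN, clone or Gm name were passed over. RefSeq promoter windows were searched for motifs on both strands. Figures were drawn with matplotlib 3.10.9.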

Additional observations from a re-analysis of the deposited data

How the results depend on the processing

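With 3 arrays a group, the count of called probe sets moved from 20 to 3 with arrays scaled to a common median, 12 with no further normalisation, 46 with dim probe sets left out, 11 with a pseudocount of 1, 73 genes with probe sets averaged and 0 to 6 with 1 array left out. With a replicate block limma called 0, with 2525 at an unadjusted p under 0.05, Foxo1 had an adjusted p of 0.0936, and 11 of the 73 list genes were higher and 4 lower at an unadjusted p under 0.05. Deviations of same-numbered samples correlated at 0.256, 0.0547 and 0.302, and those of the other pairs at -0.420 to 0.248. Untreated sample 2 correlated best with tamoxifen sample 1 (0.103). Whether same-numbered samples were handled together was not tested. The count of the 10 genes past the threshold stayed at 0 except with probe sets averaged, where it was 1 (Pim2). Cish, Socs2, Stat5a, Stat5b, Socs3, Pim2 and Abl1 kept their sign in 13 of 13 alternatives, and Cish, Socs2 and Pim2 an unadjusted p under 0.05 in 13 of 13. Near 0 the sign turned. Abl2 was 0.025 with median scaling and 0.0092 with no further normalisation, and ran from -0.10 to 0.13 with 1 array left out. Socs1 was 0.0027 with median scaling and ran from -0.10 to 0.035. Pim1 ran from -0.040 to 0.13. The cause of these shifts was not tested.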
